A study of Homo sapiens with 6 samples.

Results

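Expression of 10 genes of the cornified envelope was examined in HSC3 cells, a human cell line from a squamous cell carcinoma of the tongue. The genes are SPRR1A, SPRR1B, SPRR2A, SPRR2B and SPRR3, IVL, the transglutaminases TGM1 and TGM3, CNFN and CSTA. They were chosen by name, with earlier results of these data known. Every probe annotated to them was taken, which gave 10 probes of the 53103 gene probes analysed, or 10 genes of 18757 with a named probe. The study hybridized RNA of HSC3 cells to one-colour CodeLink arrays, 1 array per condition, after siRNA against MIA, MIA2, TANGO, MATE2 or LEMD1, with 1 control array. The deposited design names a control siRNA for the control cells. The methods call the control cells of the array experiment untreated, and elsewhere name a negative control siRNA and an amount of siRNA for knockdown in general. All 6 arrays are of the same cell line, and the time between transfection and RNA extraction is not given in the sources used here. As no condition has a second array, no ratio has an error or a p-value.

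The cornified envelope is a layer of cross-linked protein that forms beneath the plasma membrane of keratinocytes as they complete terminal differentiation. Transglutaminases, calcium-dependent enzymes, join glutamine and lysine residues of its precursors. Involucrin forms an early scaffold, and the small proline-rich proteins act as cross-bridges whose mixture differs between epidermis and the mucosa of mouth and esophagus. Most of these precursors are encoded side by side on chromosome 1, in the epidermal differentiation complex, while TGM1 lies on chromosome 14, TGM3 on chromosome 20, CNFN on chromosome 19 and CSTA on chromosome 3.

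Each of 8 genes had 1 probe of its own. SPRR2A and SPRR2B did not. One probe is listed for SPRR2A and SPRR2D together and another for SPRR2B and SPRR2A together, and these near-identical copies cannot be told apart here. The probes are called SPRR2A/SPRR2D and SPRR2B/SPRR2A. Values below are spot intensities above local background, quantile normalized over the 6 arrays, and are called normalized signal. The scanner software flags each spot as good, near background or saturated, among others. A gene was called higher or lower when its spot was good on both arrays and the log2 ratio was at least 1 in size, that is 2-fold. Of the 10 member probes, 7 were good on all 6 arrays, SPRR2B/SPRR2A was near background on all of them, and IVL and TGM3 were good on some. In RNA of whole cultures, fewer cells expressing a gene and less RNA per cell cannot be told apart.

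The targeted genes were read first. LEMD1 was near background on the array labelled LEMD1 siRNA, at least 10.1-fold below control, and also on the array labelled MIA2 siRNA, at least 6.57-fold below it. SLC47A2, which encodes the transporter MATE2, had a normalized signal of 58.9 on the array labelled TANGO siRNA and 79.6 on the array labelled MATE2 siRNA, against 1509.8 on control. The 1 good probe of MIA2 was at a log2 ratio of 0.12 on the array labelled MIA2 siRNA. A further MIA2 probe was near background on every array, at 13.4 on that array and 18.6 on control. MIA was near background everywhere, and no probe is named for MIA3, a gene also called TANGO. The label MIA2 siRNA was not borne out by the 1 good probe of its own target. The other MIA2 probe, being near background, could not check that label. The labels MIA siRNA and TANGO siRNA could not be checked this way. The arrays are called by their labels throughout.

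Between 27545 and 30628 gene probes had a good spot on an array. The arrays labelled TANGO and MATE2 siRNA stood apart from the other 4, with correlations to them of 0.87 to 0.90 over 23444 probes good on all arrays, and they correlated with each other at 0.909, little more. The array labelled MIA siRNA correlated with control at 0.975, and the array labelled LEMD1 siRNA with that labelled MIA2 siRNA at 0.967. All 10 squamous keratinocyte markers with a probe, KRT5, KRT14, EPCAM and TP63 among them, were good on the control array. Some of these markers changed with the siRNA. KRT5, a keratin of the basal layer, was 9.49-fold higher for LEMD1 siRNA, 8.20-fold for MIA2 siRNA, 3.10-fold for TANGO siRNA and 2.11-fold for MATE2 siRNA. KRT14, its partner, was 3.13-fold higher for MIA2 siRNA and 2.70-fold for LEMD1 siRNA, and 17.3-fold lower for TANGO siRNA. For MATE2 siRNA KRT14 was 1.90-fold lower, short of the rule. KRT17 was called higher for MATE2 siRNA alone, at 8.01-fold, and DSP for TANGO siRNA alone, at 3.53-fold. ITGB4, an integrin of hemidesmosomes, was lower for MIA2 and MATE2 siRNA, at log2 ratios of -1.23 and -1.29. The part of these changes in the members' ratios was not tested. Of the marker genes of other cells, 4 to 5 of 7 for fibroblasts, 2 to 3 of 6 for endothelium and 2 to 3 of 6 for leukocytes were good per array, with DCN, COL3A1, CDH5 and PTPRC near background on all 6. The summed signal of the 3 lists was 213 to 974 per list and array, against 16998 to 40842 for the keratinocyte list. Among them COL1A1, at a log2 ratio of 1.06, and COL1A2, at least 2.25-fold, were higher for MATE2 siRNA. The part of other cells in the ratios below was not tested.

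SPRR1B, SPRR1A and SPRR3 had the 3 highest ratios among the members good on both arrays, on the arrays labelled TANGO and MATE2 siRNA. The 2 SPRR2 probes had smaller ratios or none. SPRR1B, which encodes cornifin-B, had a normalized signal of 78.5 on the array labelled MIA siRNA, 268 on MIA2 siRNA, 6572 on TANGO siRNA, 5652 on MATE2 siRNA, 223 on LEMD1 siRNA and 50.5 on control. It was lowest on control and highest on the arrays labelled TANGO and MATE2 siRNA, with those labelled MIA2 and LEMD1 siRNA in between. These are folds of 130 for TANGO siRNA, 112 for MATE2 siRNA, 5.31 for MIA2 siRNA, 4.41 for LEMD1 siRNA and 1.55 for MIA siRNA. SPRR1B had the highest ratio of all 26354 good probes on the array labelled TANGO siRNA and of all 26648 on the array labelled MATE2 siRNA. It stood 23rd of 25898 for MIA2 siRNA and 32nd of 27466 for LEMD1 siRNA. Its raw intensity on control was 49.4, while the 95th percentile of the negative control spots there was 22.6. The size of the fold therefore depends on the background, and with 50 added to the signal the folds were 65.9 for TANGO siRNA and 56.7 for MATE2 siRNA.

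SPRR1A, the closest relative of SPRR1B among the members, had 75.5 on the array labelled MIA siRNA, 116 on MIA2 siRNA, 1404 on TANGO siRNA, 1074 on MATE2 siRNA, 95.0 on LEMD1 siRNA and 70.3 on control. Its folds over control were 20.0 for TANGO siRNA and 15.3 for MATE2 siRNA, and under 2 for the remaining arrays. It stood 13th and 11th among the good probes of those 2 arrays. Without background correction its folds were 10.6 and 8.20 in that order. SPRR3, also called esophagin, an envelope protein of oral and esophageal mucosa, had 115 on the array labelled MIA siRNA, 95.5 on MIA2 siRNA, 454 on TANGO siRNA, 1156 on MATE2 siRNA, 104 on LEMD1 siRNA and 108 on control. It was called higher on the same arrays as SPRR1A, but with the larger fold, 10.7, for MATE2 siRNA, against 4.21 for TANGO siRNA. On the arrays labelled MIA, MIA2 and LEMD1 siRNA its log2 ratio lay between -0.18 and 0.09.

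The probe SPRR2A/SPRR2D had smaller ratios. Its normalized signal was 67.7 on the array labelled MIA siRNA, 63.1 on MIA2 siRNA, 89.1 on TANGO siRNA, 151 on MATE2 siRNA, 77.2 on LEMD1 siRNA and 72.9 on control. It was 2.07-fold higher for MATE2 siRNA, just past the rule, and 1.62-fold with normexp background correction. SPRR2B/SPRR2A lay between 13.3 and 24.1, near background on all 6 arrays, and has no ratio.

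**Figure D1:**
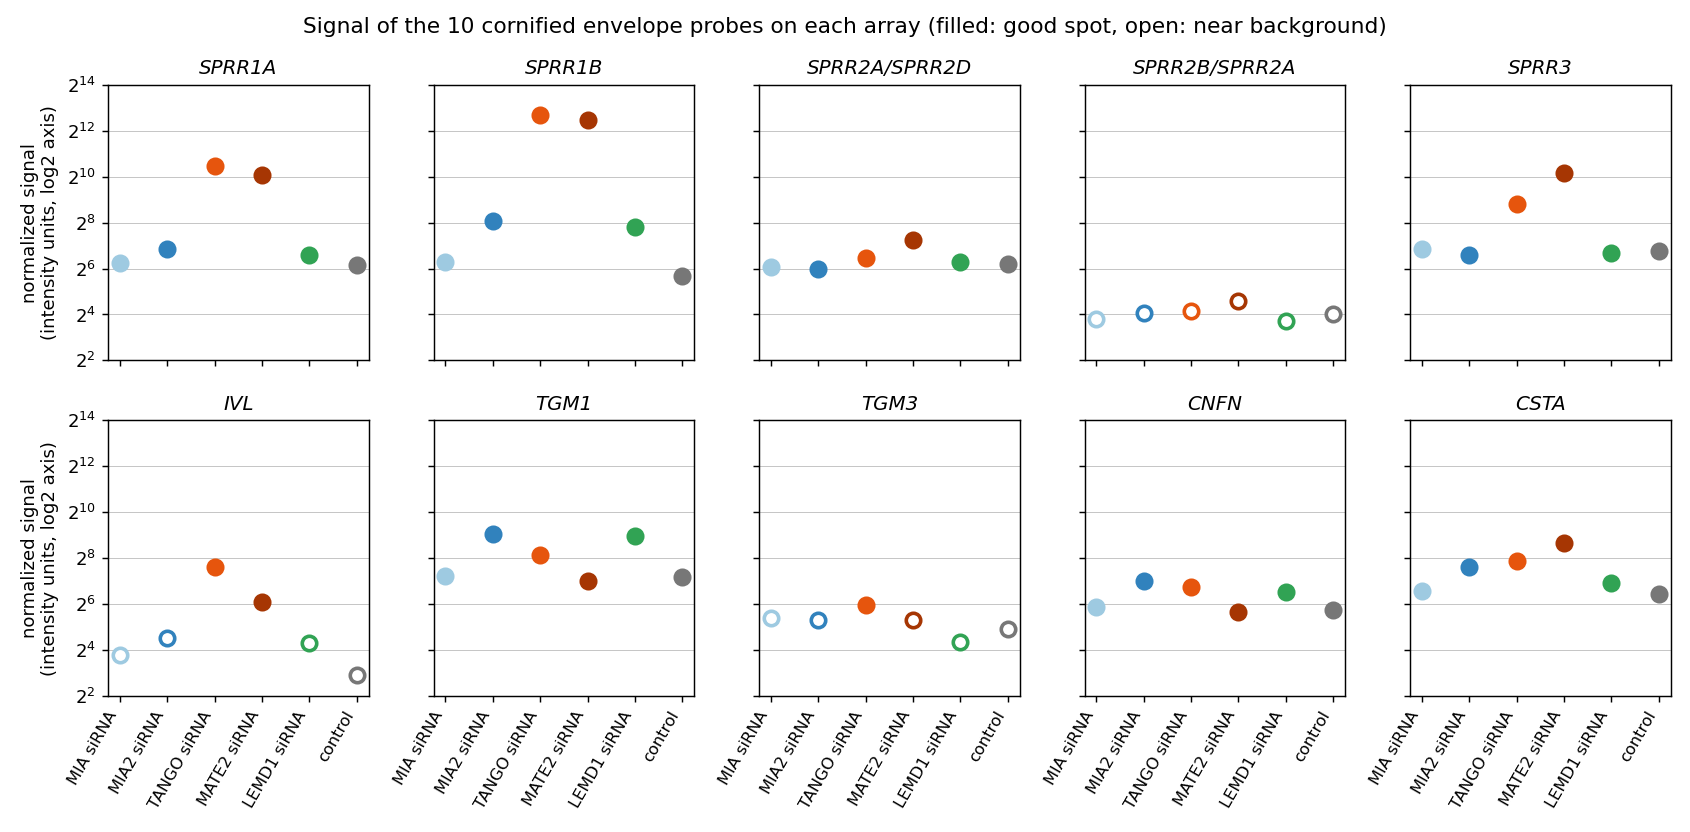
Normalized signal (y axis, intensity units on a log2 axis) of the 10 member probes on the 6 arrays (x axis), each point 1 array, filled where the spot was good and open where it was near background. SPRR1B reached 6572 and 5652 on the arrays labelled TANGO and MATE2 siRNA and was at 50.5 on control, while TGM1 was highest on the arrays labelled MIA2 and LEMD1 siRNA.

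IVL encodes involucrin, the scaffold on which other precursors are assembled. It was good on the arrays labelled TANGO siRNA, at 198, and MATE2 siRNA, at 67.8, and near background on the others, at 13.7 for MIA siRNA, 23.1 for MIA2 siRNA, 19.9 for LEMD1 siRNA and 7.48 on control. For such a gene the higher of its own signal and the lowest good signal of the control array, 34.2, was taken as control. IVL was then at least 5.77-fold higher for TANGO siRNA and at least 1.98-fold higher for MATE2 siRNA.

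SPRR1A, SPRR1B and SPRR3 had the highest member ratios on the arrays labelled TANGO and MATE2 siRNA. IVL had bounds in place of ratios, and that for MATE2 siRNA, 1.98-fold, was short of the rule. CNFN was called higher for TANGO siRNA, 2.02-fold, but was not called for MATE2 siRNA. The promoters of these genes are printed here. Each is the 250 bases before the start site in RefSeq, build GRCh38.p14, written 5′ to 3′, with capitals for TGAGTCA, the site of the AP-1 transcription factor, and for TATAAA, the core of the TATA box, where either stands on this or the opposite strand.
SPRR1A, chr1:152983831-152984080, plus strand: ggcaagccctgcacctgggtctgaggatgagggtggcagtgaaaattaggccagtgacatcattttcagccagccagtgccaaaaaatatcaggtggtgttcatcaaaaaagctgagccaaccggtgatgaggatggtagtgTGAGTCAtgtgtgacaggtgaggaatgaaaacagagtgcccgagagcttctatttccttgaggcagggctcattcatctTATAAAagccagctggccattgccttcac
SPRR1B, chr1:153030953-153031202, plus strand: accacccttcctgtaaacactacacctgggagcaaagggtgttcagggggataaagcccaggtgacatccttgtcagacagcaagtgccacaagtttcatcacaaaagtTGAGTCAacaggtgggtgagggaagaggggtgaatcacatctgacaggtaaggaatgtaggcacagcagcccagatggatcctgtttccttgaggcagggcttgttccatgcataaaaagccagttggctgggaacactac
SPRR3, chr1:153001499-153001748, plus strand: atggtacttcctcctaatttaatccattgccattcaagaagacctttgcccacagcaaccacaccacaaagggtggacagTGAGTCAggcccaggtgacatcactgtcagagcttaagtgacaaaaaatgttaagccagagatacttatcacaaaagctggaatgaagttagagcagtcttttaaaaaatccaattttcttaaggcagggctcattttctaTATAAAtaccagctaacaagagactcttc
IVL, chr1:152908296-152908545, plus strand: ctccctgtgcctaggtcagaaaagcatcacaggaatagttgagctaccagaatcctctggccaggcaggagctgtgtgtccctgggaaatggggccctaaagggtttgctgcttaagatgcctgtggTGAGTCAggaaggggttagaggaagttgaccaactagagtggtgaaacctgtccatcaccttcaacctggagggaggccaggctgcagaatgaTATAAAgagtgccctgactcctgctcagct
CNFN, chr19:42390298-42390547, minus strand: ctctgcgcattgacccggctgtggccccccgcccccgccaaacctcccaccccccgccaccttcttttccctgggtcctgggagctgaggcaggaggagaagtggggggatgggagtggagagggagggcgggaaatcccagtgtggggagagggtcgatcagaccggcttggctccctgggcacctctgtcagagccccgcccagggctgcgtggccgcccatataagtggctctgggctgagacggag
TGAGTCA stood once in each of the promoters of SPRR1B, SPRR1A, SPRR3 and IVL, beginning 141, 108, 170 and 123 bases before the start site, and once in that of SPRR2A. It was not found in the 250 bases of CNFN, TGM3 or SPRR2B. Of 35116 promoters of this length, 4.20% hold it on either strand. TATAAA was found in 6 of the 8 member promoters, each with a copy 29 or 30 bases before the start site, and in 10.7% of all promoters. TGM3 had further copies, some of them overlapping, and SPRR1B and CNFN had none. Of the other motifs searched on both strands, AACCGGT, a grainyhead site, was in the SPRR1A promoter alone among the 8, against 0.626% of all promoters, and GGGTG, a site of KLF factors, in 7 of the 8, against 54.7%. In the promoters printed, TGAGTCA and TATAAA did not overlap. A match is a description of the sequence and was tested for nothing in these cells. TGM1 and CSTA have no promoter printed here.

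The enzyme TGM1 followed another order of arrays. TGM1 encodes the membrane-bound transglutaminase of keratinocytes. Its normalized signal was 147 on the array labelled MIA siRNA, 537 on MIA2 siRNA, 280.0 on TANGO siRNA, 127 on MATE2 siRNA, 506 on LEMD1 siRNA and 143 on control. It was 3.76-fold higher for MIA2 siRNA and 3.55-fold higher for LEMD1 siRNA, 51st and 53rd among the good probes of those arrays. For TANGO siRNA the fold was 1.96, just short of the rule. On the array labelled MATE2 siRNA, where SPRR1B was 112-fold higher, the log2 ratio of TGM1 was -0.16. TGM3, the epidermal transglutaminase, which is activated by proteolysis, was good on the array labelled TANGO siRNA alone, at 62.8, at least 1.84-fold above control. Elsewhere it was near background, at 41.5 for MIA siRNA, 39.7 for MIA2 siRNA, 40.1 for MATE2 siRNA, 20.6 for LEMD1 siRNA and 30.5 on control.

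CNFN, cornifelin, is a small protein of the envelope. It had 58.9 on the array labelled MIA siRNA, 129.9 on MIA2 siRNA, 107 on TANGO siRNA, 49.9 on MATE2 siRNA, 90.8 on LEMD1 siRNA and 52.9 on control. It was called higher for MIA2 siRNA, 2.46-fold, and for TANGO siRNA, 2.02-fold, and was at 0.94 of control for MATE2 siRNA. Both calls are lost with normexp, without background correction or with 50 added to the signal, where CNFN was 1.58- to 1.75-fold higher for MIA2 siRNA and 1.38- to 1.52-fold higher for TANGO siRNA. CSTA encodes cystatin A, an inhibitor of cysteine proteases that is itself cross-linked into the envelope. Its normalized signal was 94.6 on the array labelled MIA siRNA, 195 on MIA2 siRNA, 232 on TANGO siRNA, 410.0 on MATE2 siRNA, 119.8 on LEMD1 siRNA and 85.8 on control. The folds over control were 4.78 for MATE2 siRNA, 2.71 for TANGO siRNA and 2.27 for MIA2 siRNA, and 1.40 and 1.10 for LEMD1 and MIA siRNA. The call for MIA2 siRNA is lost with the same 3 settings, at 1.68- to 1.80-fold, and the call for TANGO siRNA without background correction, at 1.95-fold.

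**Figure D2:**
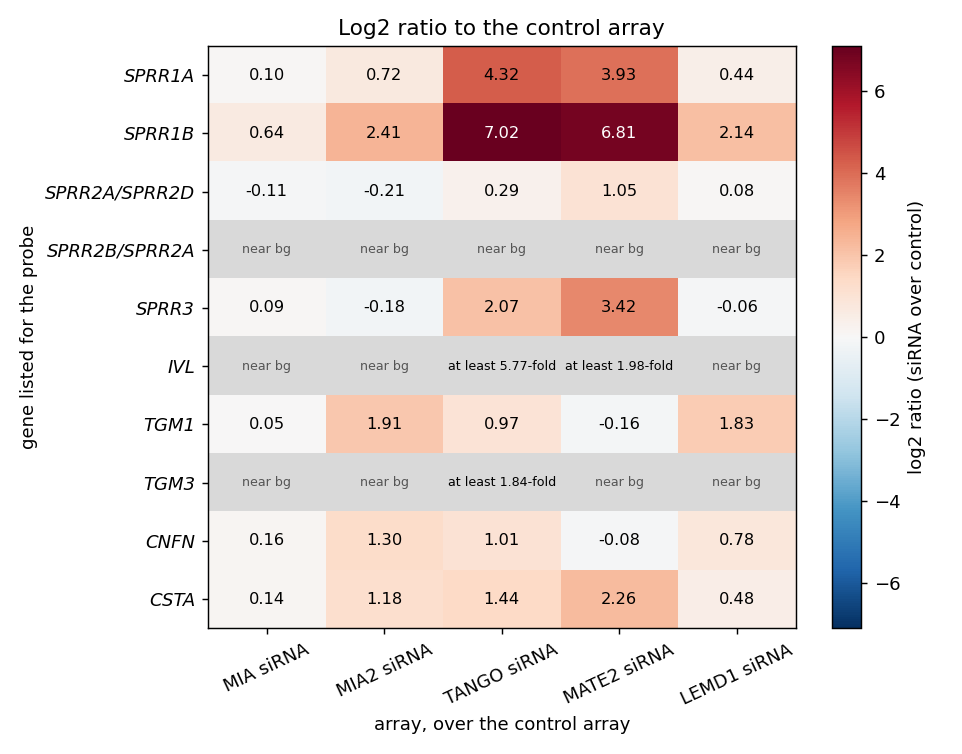
Log2 ratio of each siRNA array (x axis) over the control array for the 10 member probes (y axis), red where higher and blue where lower, grey where a spot was near background. SPRR1B was at 7.02 and 6.81 on the arrays labelled TANGO and MATE2 siRNA, and TGM1 at 1.91 and 1.83 on those labelled MIA2 and LEMD1 siRNA.

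Across the 7 member probes good on every array, no probe was called lower on any siRNA array. None was called higher on the array labelled MIA siRNA, where 0.588% of 26688 good probes were higher and 0.318% lower. On the array labelled MIA2 siRNA 4 were higher, SPRR1B, TGM1, CNFN and CSTA, against 2.88% of all good probes higher and 3.74% lower. On the array labelled TANGO siRNA 5 were higher, SPRR1A, SPRR1B, SPRR3, CNFN and CSTA, and the bound of IVL also passed 2-fold, against 4.58% higher and 6.43% lower. On the array labelled MATE2 siRNA 5 were higher, SPRR1A, SPRR1B, SPRR3, SPRR2A/SPRR2D and CSTA, against 5.05% higher and 7.55% lower. On the array labelled LEMD1 siRNA 2 were higher, SPRR1B and TGM1, against 1.56% higher and 2.57% lower. The median log2 ratio of the members was 0.10 for MIA siRNA, 1.18 for MIA2 siRNA, 1.44 for TANGO siRNA, 2.26 for MATE2 siRNA and 0.48 for LEMD1 siRNA. That of all good probes lay between -0.01 and 0.05. As the members were chosen with earlier results of these data known, the shares beside their counts are no test of them. The 5 comparisons share the control array, on which SPRR1A, SPRR1B, IVL and CSTA had their lowest signals. With the array labelled MIA siRNA in its place, SPRR1B was 83.7-fold higher for TANGO siRNA, 72.0-fold for MATE2 siRNA, 3.42-fold for MIA2 siRNA and 2.84-fold for LEMD1 siRNA, and CNFN was no longer 2-fold higher for TANGO siRNA, at 1.81-fold.

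The members' ratios can be set beside the spread of all probes good on both arrays. The robust SD of their log2 ratio to control was 0.29 for MIA siRNA, 0.49 for MIA2 siRNA, 0.54 for TANGO siRNA, 0.52 for MATE2 siRNA and 0.38 for LEMD1 siRNA. This spread holds real changes as well as noise and is not an error of any 1 gene. The central 99% of all good probes ran from -2.33 to 2.13 for TANGO siRNA and from -2.34 to 2.01 for MATE2 siRNA. SPRR1B and SPRR1A lay beyond it on the array labelled TANGO siRNA, and SPRR1B, SPRR1A, SPRR3 and CSTA on that labelled MATE2 siRNA. For MIA2 siRNA it ran from -1.72 to 1.58 and for LEMD1 siRNA from -1.61 to 1.44, and SPRR1B and TGM1 lay beyond it on both arrays.

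**Figure D3:**
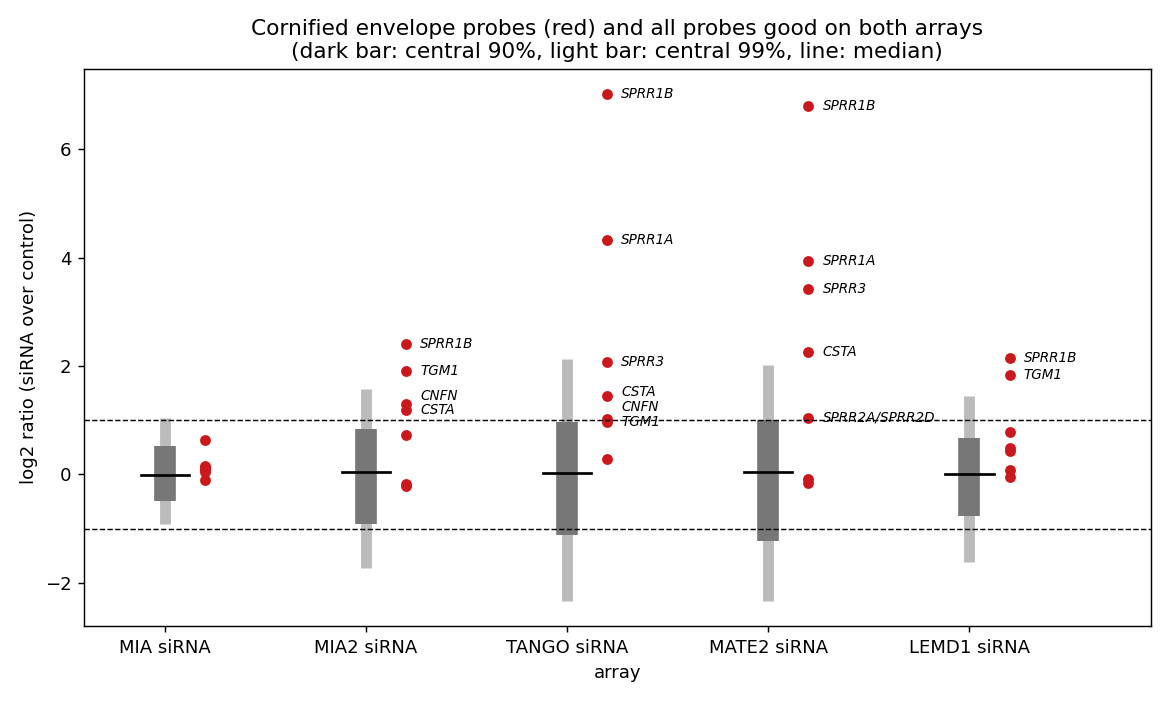
Log2 ratio to control (y axis) on the 5 siRNA arrays (x axis) for the member probes good on both arrays (red points) and for all probes good on both arrays, with dark bars for their central 90%, light bars for their central 99% and a line at the median. SPRR1B, at 7.02 and 6.81, lies far above the upper ends of the light bars, 2.13 and 2.01, for TANGO and MATE2 siRNA.

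The array labelled MATE2 siRNA was also compared directly with that labelled TANGO siRNA, and the array labelled LEMD1 siRNA with that labelled MIA2 siRNA, without the control array. Between the arrays labelled MATE2 and TANGO siRNA, SPRR1B and SPRR1A differed by less than 2-fold, with log2 ratios of MATE2 over TANGO siRNA of -0.22 and -0.39. SPRR3 was 2.55-fold higher for MATE2 siRNA than for TANGO siRNA, and SPRR2A/SPRR2D and CSTA had log2 ratios of 0.76 and 0.82. IVL, TGM1 and CNFN were called lower for MATE2 siRNA than for TANGO siRNA, with log2 ratios of -1.54, -1.14 and -1.10. This is 1 member higher and 3 lower of 8, where 4.79% of 26993 good probes were higher and 4.61% lower. The members thus split between these arrays into SPRR3 on one side and IVL, TGM1 and CNFN on the other. Between the arrays labelled LEMD1 and MIA2 siRNA none of 7 members was called, against 0.659% of 26726 good probes higher and 0.292% lower, and the log2 ratios ran from -0.70 for CSTA to 0.29 for SPRR2A/SPRR2D.

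**Figure D4:**
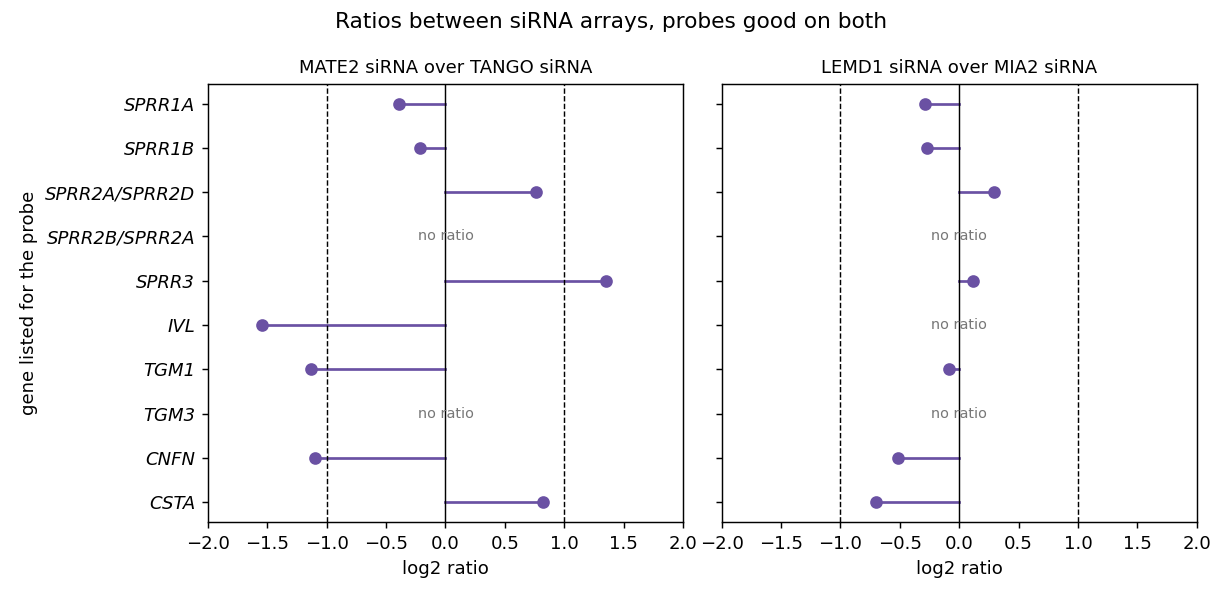
Log2 ratio (x axis) of MATE2 siRNA over TANGO siRNA (left) and of LEMD1 siRNA over MIA2 siRNA (right) for the member probes (y axis) good on both arrays, with dashed lines at log2 ratios of -1 and 1. On the left SPRR3 lies at 1.35 and IVL at -1.54, and on the right all 7 lie between the dashed lines.

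Over the 6 arrays, the log2 signals of some members were closely alike and those of others were not. Pearson's r was 0.98 between SPRR1A and SPRR1B, 0.92 between SPRR1A and SPRR3, 0.94 between SPRR3 and SPRR2A/SPRR2D and 0.91 between SPRR1B and CSTA. SPRR2A/SPRR2D was less alike to SPRR1A, SPRR1B and CSTA, with r of 0.77, 0.76 and 0.78. For MIA2 siRNA, SPRR1B and CSTA were at log2 ratios of 2.41 and 1.18, and SPRR3 and SPRR2A/SPRR2D at -0.18 and -0.21. Pearson's r was 0.91 between TGM1 and CNFN, and -0.16 and -0.02 between TGM1 and SPRR1A or SPRR1B. These are descriptions over 6 arrays that share their cell line and their normalization. Among other named genes, 4907 of them for SPRR1A, that were good on all arrays and spanned at least 2-fold, those most alike to SPRR1A were SEC11C, a subunit of the signal peptidase complex, at r of 0.998, IMPACT, a translational regulator, at 0.996 and MDH2, mitochondrial malate dehydrogenase, at 0.992. SEC11C and IMPACT were also among the 3 most alike to SPRR1B, with BEND5. WDR33, ECE2 and MANF were nearest to SPRR3, with r of 0.994, 0.994 and 0.993. MAL2, MICA and PORCN were nearest to SPRR2A/SPRR2D, with r of 0.995, 0.990 and 0.988. Nearest to TGM1 were NIPSNAP3A, DUSP12 and RBM45, with r of 0.994, 0.994 and 0.990. Nearest to CNFN were FAM199X, GLIS1 and NIFK-AS1, with r of 0.988, 0.983 and 0.981. Nearest to CSTA were MTRES1, COPS5 and NMB, with r of 0.990, 0.990 and 0.988. None of these is another member. The arrays are few and the genes compared many, and no p-value is given.

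Few other genes of the envelope could be measured against control, and with so few a count of none called is near the shares of all good probes given above. Of 18 late cornified envelope genes, 8 had a named probe and 4 or 5 were good on both arrays, and none was called on any array. Of 8 genes of the filaggrin family and loricrin, 5 had a named probe, and the 2 good on both arrays, LORICRIN and TCHH, were not called. FLG, filaggrin, was near background on all 6 arrays. Of 6 further transglutaminases, TGM2, TGM4 and TGM7 were good and none was called. For TANGO and MATE2 siRNA the log2 ratios of TGM4 and TGM7 lay between 0.71 and 0.79. Those of TGM2 were -0.29 and -0.31 on these arrays, and 0.80 for MIA2 siRNA. Of 12 plakins and other envelope genes, 10 had a named probe. SPRR4, the 1 further small proline-rich gene with a named probe of 6 listed, was good on 4 arrays and was not called. PPL and EVPL, periplakin and envoplakin, and CDSN, corneodesmosin, were not called on any array.

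In that list PI3 and CST6 moved most, in opposite directions. PI3 encodes elafin, a protease inhibitor that transglutaminases cross-link to the envelope, and it is named here after its values were seen, since its control spot was near background. Its normalized signal was 419 for TANGO siRNA and 1424 for MATE2 siRNA, at least 12.2-fold and at least 41.6-fold above control in that order. CST6, cystatin M/E, an inhibitor of the proteases that act in cornification, had 785 on the array labelled MIA siRNA, 413 on MIA2 siRNA, 68.7 on TANGO siRNA, 72.3 on MATE2 siRNA, 358 on LEMD1 siRNA and 828 on control. It was called lower for TANGO siRNA, MATE2 siRNA and LEMD1 siRNA, and for MIA2 siRNA at 2.01-fold, just past the rule. SCEL, which encodes sciellin, was 2.79-fold lower for MATE2 siRNA and at least 3.91-fold lower for TANGO siRNA, where it was near background. Of 8 genes of processing and the lipid envelope that were good on both arrays, ABCA12, a lipid transporter of lamellar granules, was higher for TANGO siRNA at a log2 ratio of 1.58.

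**Figure D5:**
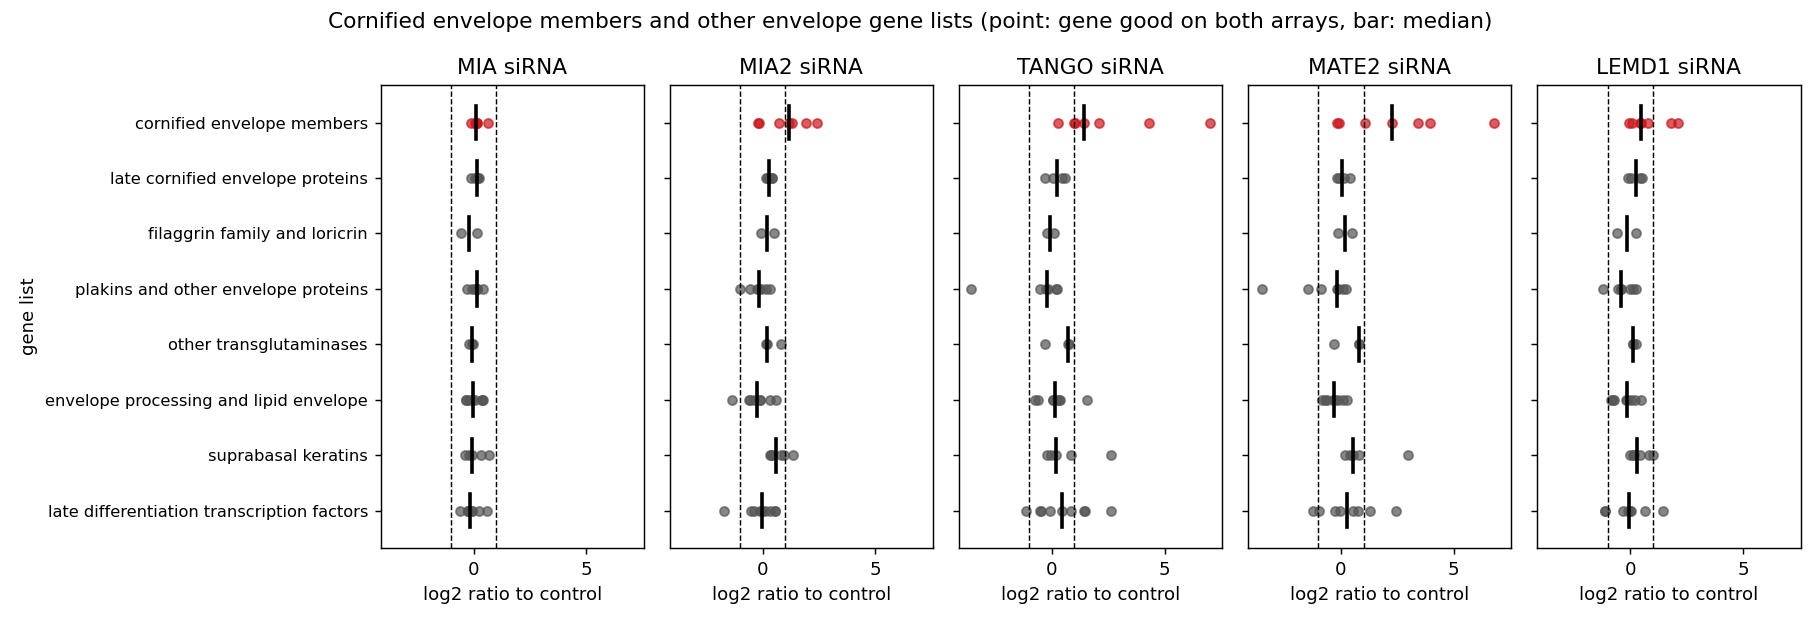
Log2 ratio to control (x axis) for the genes of 8 lists (y axis) on the 5 siRNA arrays (panels), each point a gene good on both arrays, with black bars for list medians and dashed lines at -1 and 1. The member medians lie at 1.44 and 2.26 for TANGO and MATE2 siRNA, while those of the late cornified envelope list lie at 0.25 and 0.02.

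Of 7 suprabasal keratins, KRT4 and KRT13, a pair of the oral mucosa, were high on the arrays labelled TANGO and MATE2 siRNA. KRT4 had 491 on the array labelled MIA siRNA, 746 on MIA2 siRNA, 3508 on TANGO siRNA, 4378 on MATE2 siRNA, 625 on LEMD1 siRNA and 563 on control. KRT13, its partner, was saturated on the arrays labelled TANGO and MATE2 siRNA, at least 21.5-fold above control on each, and was 2.57-fold higher for MIA2 siRNA. KRT76 and KRT78, named after their values were seen, were not called on any array, with log2 ratios of 0.20 and -0.20 for TANGO siRNA and 0.55 and 0.40 for MATE2 siRNA. KRT16, a keratin of activated keratinocytes, was at log2 ratios of 3.00 for TANGO siRNA and 4.39 for MATE2 siRNA. Of the keratins of the epidermis, KRT10 was near background on all 6 arrays. KRT1 was called higher for LEMD1 siRNA alone, at a log2 ratio of 1.03, just past the rule. It was at 0.95 for MIA2 siRNA, 0.87 for TANGO siRNA and 0.79 for MATE2 siRNA, over a low control signal of 43.9. Among 11 transcription factors of late differentiation, GRHL3, a grainyhead factor that regulates barrier genes, was called higher for TANGO siRNA at 2.61, MATE2 siRNA at 2.46 and LEMD1 siRNA at 1.44, and KLF4, a zinc finger factor of the epidermal barrier, for TANGO and MATE2 siRNA at 1.45 and 1.27. ELF3, an epithelial ETS factor, was lower on those 2 arrays at -1.12 and -1.25, and EHF, another, was lower for MIA2 and LEMD1 siRNA at -1.70 and -1.13. Each of 3 further factors passed 2-fold on 1 array, GRHL1 higher for TANGO siRNA at 1.43, ZNF750 lower for LEMD1 siRNA at -1.11 and MAF at least 2.39-fold lower for MATE2 siRNA. For TANGO and MATE2 siRNA the list medians, over genes good on both arrays, were 0.20 and 0.55 for the suprabasal keratins. They were 0.46 and 0.25 for these transcription factors and 0.71 and 0.78 for the other transglutaminases. For the plakins and other envelope genes they were -0.21 and -0.19. KRT13 and PI3 for both siRNAs, SCEL for TANGO siRNA and MAF for MATE2 siRNA, given above as bounds, are outside these medians.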

How the data were processed

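RNA of HSC3 cells was measured on 6 CodeLink whole genome arrays with a single dye, 1 per condition. Groups were taken from the sample labels. The deposited scanner files hold intensity values. Their headers name version 5.0.0.31312 of the CodeLink Expression Analysis software, and the value used is the spot mean less the median local background, which held within 0.0001 on unmasked spots. The authors also deposited a table of quantile normalized intensity, which served as an alternative. From the scanner values, 320 gene probes masked on any array were left out, 53103 were quantile normalized, values under 1 were set to 1, and log2 was taken.

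Probes were named from the platform table, whose accession matched that of the scanner file for 95.6% of its 24377 probes, or from the accession. Of the gene probes, 23311 had 1 symbol from the table and 649 from the accession, 898 had several and 28245 none. A gene with several probes was represented by the brightest. Calls needed good flags on both arrays and 2-fold. Lists and members were chosen with earlier results of these data known. Named genes were all members, list genes called on at least 2 siRNA arrays, genes most alike to a member by Pearson's r and the siRNA targets. Other list genes were named after their values were seen. The rule was tested on simulated data with noise of the same size on the log2 scale at every signal. That test does not bear on calls near background. Python 3.11.15, pandas 2.3.3 and limma 3.58.1 were used. The number of arrays limits the precision, and no test between conditions was possible.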

Additional observations from a re-analysis of the deposited data

How the results depend on the processing

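The counts of members called were recomputed with median scaling, quantile normalization without the arrays labelled TANGO and MATE2 siRNA, the deposited normalized table, the raw signal without background correction, normexp with its offset at 50, 50 added to the signal, no filter on flags, other comparators, the mean over good probes, and folds of 1.5 and 3. Of the 16 called ratios of members, tried 150 times in all, 131 kept their call, 18 fell under 2-fold and 1 changed sign. The 4 members higher for MIA2 siRNA were 2 with normexp, without background correction, with 50 added, against the median of the 5 other arrays and at 3-fold. The 5 higher for TANGO siRNA were 3 without background correction, against the median of the 5 other arrays and at 3-fold. For LEMD1 siRNA, taking the median of the 5 other arrays left 1 higher of 2, and SPRR1B changed sign to -0.27. By their construction the other arrays there include those on which SPRR1B was high. Against that median 2 members were lower for MIA siRNA and 1 for MATE2 siRNA, where none was against control. At 1.5-fold 1 member was higher for MIA siRNA. With median scaling, 4.10% of good probes were higher and 3.15% lower for MIA2 siRNA, in place of 2.88% and 3.74%. For TANGO siRNA 2.17% of good probes were higher without background correction, 2.36% after normexp and 2.45% when 50 was added, in place of 4.58%. No paired analysis was possible because each condition has 1 array. Signals of the members on control, under 150 for every member, limit the folds, and 3 of the 10 probes were near background on it.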

Other observations

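SPRR1A, SPRR1B, SPRR3 and IVL lie in the epidermal differentiation complex, taken here as the 63 coding genes from S100A10 to S100A1 in RefSeq order, a choice made after the data were seen. Of these, 35 had a named probe. Apart from the members, 4 of 20 genes good on both arrays were higher for TANGO siRNA, S100A7, S100A4, S100A2 and S100A14, and 3 of 19 for MATE2 siRNA, S100A7, S100A4 and S100A2, where 4.58% and 5.05% of all good probes were higher. None was lower on either array. S100A8, near background on control, was at least 47.0-fold higher for TANGO siRNA and at least 8.64-fold higher for MATE2 siRNA. S100A4, a calcium-binding protein linked to cell motility, was 9.96-fold higher for TANGO siRNA and 7.21-fold higher for MATE2 siRNA. For MIA2 siRNA 2 of 20 were higher, S100A2 at 3.41-fold and S100A10 at 2.01-fold, against 2.88% of all good probes. For LEMD1 siRNA S100A2 alone was called, at 2.67-fold, against 1.56%. The median log2 ratio of the non-members was 0.26 on each of the arrays labelled TANGO and MATE2 siRNA. Most genes of the complex with a good spot thus did not reach 2-fold there.

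LEMD1 itself was higher on the 2 arrays where SPRR1A, SPRR1B and SPRR3 were highest. Its normalized signal was 3192 on the array labelled TANGO siRNA and 1011 on the array labelled MATE2 siRNA, against 278 on control. On the arrays labelled MIA2 and LEMD1 siRNA, LEMD1 was near background, at 42.3 and 27.6. SPRR1B was called higher there too, at 5.31- and 4.41-fold, while SPRR1A and SPRR3 were not called. A relation of LEMD1 to these genes was not tested.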
